A study of Mus musculus with 8 samples.

Results

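The genes described here are 10 genes whose transcripts are widely read as measures of signalling through the T cell receptor (TCR): Nr4a1, Nr4a2, Nr4a3, Egr1, Egr2, Egr3, Cd69, Cd5, Nfatc1 and Dusp2. They were given as a list of names and were found by their Ensembl identifiers among the 53465 identifiers in each table. All 10 had at least 5 CPM (reads scaled to the size of the library) in 1 or more of the 6 total Treg libraries, and 9 of 10 did so in 1 or more of the 2 aTreg libraries.

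When the TCR binds its ligand, kinases at the membrane open a calcium arm, which drives NFAT factors into the nucleus, and a RAS-ERK arm, which acts on factors bound beside SRF. The Egr and Nr4a genes are immediate-early targets of these arms, while CD69 and CD5 are surface proteins whose amount follows the strength of recent or long-term signalling. Regulatory T (Treg) cells recognise self-ligands and are known for a high tonic level of several of these genes.

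RNA was sequenced from Treg cells of spleen and lymph nodes of C57BL/6 mice aged 3-4 weeks, with 1 library per condition. In the total Treg experiment the WT library came from R26CAG-FlpoER BrgF/+ Foxp3YFP-Cre/+ mice, so that its donors carried 1 floxed allele. Mosaic females gave a Brg1-sufficient library (BrgF/ΔR, the Foxp3+/+ cells) and a Brg1-deleted library (BrgF/ΔR, the Foxp3YFP-Cre cells), whereas rKO1 mice (BrgF/ΔR Foxp3YFP-Cre/YFP-Cre) gave an untreated library. From rKO1 mice given tamoxifen (TAM), GFP+ Brg1-deleted cells and GFP− Brg1-reexpressed cells (labelled BrgF/+ Foxp3YFP-Cre/YFP-Cre) were taken 7 days later. All these mice carried FlpoER, a tamoxifen-activated recombinase driven by the ubiquitous CAG promoter in the R26 locus, and Cre was driven from the Foxp3 locus on the X chromosome. ΔR is a gene-trapped null allele of Brg1 (Smarca4), the gene for the ATPase of the BAF chromatin remodelling complex, that FlpoER turns back into a working allele. The rKO1 mice were inflamed and the mosaic females were healthy, so that the rKO1 and mosaic libraries differ in the state of the animal as well as in Brg1. A separate aTreg experiment gave 2 libraries of activated Treg cells (gated as CD44hi among other markers) from rKO1 mice, again 7 days after the mice had received TAM. The aTreg library titled Brg1-deleted has a description of F/F and a column heading of WT, and it is called by its title below.

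Reads recovered from the deposited FPKM values numbered between 16300601 and 24058769 per library, so that 1 read was worth between 0.0412 and 0.0603 CPM. Smarca4, the targeted gene, was at 88.0 CPM in WT, 77.1 in mosaic Brg1-sufficient, 47.2 in mosaic Brg1-deleted, 44.0 in untreated rKO1, 36.1 in Brg1-deleted rKO1 after TAM and 58.1 in Brg1-reexpressed rKO1 cells. In the aTreg experiment Smarca4 went against the labels, with 71.2 CPM in the library labelled Brg1-deleted and 59.4 CPM in the library labelled Brg1-reexpressed, and the count does not separate exons lost from the floxed allele or exons upstream of the trap. Foxp3, which defines Treg cells, was present in every library. In the total Treg libraries it ran from 73.1 CPM in WT to 536 CPM in mosaic Brg1-sufficient cells, both with Brg1. The aTreg libraries labelled Brg1-deleted and Brg1-reexpressed had 93.8 and 62.1 CPM. Single libraries leave every difference without a replicate check and without a p-value, and in these bulk samples fewer cells of a type and less RNA per cell cannot be told apart.

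The RefSeq promoter table (GRCm38.p6) held windows for 6 of the 10 genes, Nr4a1, Nr4a2, Nr4a3, Egr2, Cd5 and Dusp2. Each window ran from 250 bases before to 50 bases after a start site. Motifs of the factors downstream of the TCR were searched on both strands. The EGR site (GCGNGGGCG) was found in the windows of Nr4a1, Nr4a2 and Dusp2, against 5.55% of all 32851 promoter windows. The CArG box, bound by SRF, was found in the windows of Egr2 alone among the 6 genes, against 1.63% of all windows. The NFAT core (GGAAA) was in windows of Nr4a2, Egr2 and Cd5, but 61.3% of all windows hold these short letters. No window of the 6 genes held a CRE (TGACGTCA), an AP-1 site (TGANTCA) or an NBRE (AAAGGTCA), which 1.79%, 7.81% and 1.51% of all windows held. These are matches of letters, not measured binding. In the windows printed below, the EGR and CArG matches overlapped no other motif searched. In another window of Egr2, starting at 67537316, the CArG box at −72 overlapped an NFAT core at −64. The 250 bases before the start site are printed for the 4 genes whose window held an EGR site or a CArG box. These stretches are read on the strand of the gene with the motif in capitals, and set members of 3 gene groups side by side. They lie at chr15:101266596-101266845 (plus strand, Nr4a1), chr2:57124004-57124253 (minus strand, Nr4a2), chr2:127335909-127336158 (plus strand, Dusp2) and chr10:67537619-67537868 (plus strand, Egr2).
Nr4a1 promoter, EGR site: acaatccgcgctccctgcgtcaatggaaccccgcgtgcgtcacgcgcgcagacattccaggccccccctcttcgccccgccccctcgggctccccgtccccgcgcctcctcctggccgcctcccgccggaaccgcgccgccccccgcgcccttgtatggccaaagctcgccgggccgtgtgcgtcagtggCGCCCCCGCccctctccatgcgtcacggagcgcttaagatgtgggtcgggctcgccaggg
Nr4a2 promoter, EGR site: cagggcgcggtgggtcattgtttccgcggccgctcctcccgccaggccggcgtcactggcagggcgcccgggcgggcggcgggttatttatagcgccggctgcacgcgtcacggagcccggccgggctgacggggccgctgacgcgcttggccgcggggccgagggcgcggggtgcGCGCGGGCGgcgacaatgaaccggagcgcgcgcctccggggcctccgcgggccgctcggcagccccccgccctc
Dusp2 promoter, EGR site: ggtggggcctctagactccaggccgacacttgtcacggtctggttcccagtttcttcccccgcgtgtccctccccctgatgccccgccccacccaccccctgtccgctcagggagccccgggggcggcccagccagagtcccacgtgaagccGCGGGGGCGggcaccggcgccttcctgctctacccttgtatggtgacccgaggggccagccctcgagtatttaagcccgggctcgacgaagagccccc
Egr2 promoter, CArG box: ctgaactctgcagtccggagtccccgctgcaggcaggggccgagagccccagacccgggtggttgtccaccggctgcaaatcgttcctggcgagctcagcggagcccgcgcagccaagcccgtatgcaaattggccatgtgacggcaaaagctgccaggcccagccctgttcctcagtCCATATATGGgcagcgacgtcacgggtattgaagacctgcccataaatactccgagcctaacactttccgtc

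Nr4a1 (ENSMUSG00000023034, chromosome 15, 101254269 to 101274795), the orphan nuclear receptor behind the Nur77 reporter of TCR signalling, was high in 2 libraries and low in the other 4. Its level was 82.4 FPKM in WT and 69.5 FPKM in Brg1-deleted rKO1 cells after TAM, but 28.5 FPKM in mosaic Brg1-deleted, 24.7 in mosaic Brg1-sufficient, 21.4 in Brg1-reexpressed and 17.6 FPKM in untreated rKO1 cells. The 2 high libraries differed from each other by 1.19-fold (95% interval 1.13 to 1.26) and the lower of them stood 2.27-fold above the next. This step was beyond the library-to-library range. A range holds 95% of the absolute log2 differences of the 500 genes nearest in expression within a pair of libraries meant to be alike. The 2 pairs were WT and mosaic Brg1-sufficient, and untreated and TAM-treated Brg1-deleted rKO1. The wider of the 2 ranges was used. For the genes described here, the range of WT and mosaic Brg1-sufficient cells was the wider in each comparison of conditions. Each of these pairs sets cells of different mice side by side, and the rKO1 pair also differs in TAM treatment. The total Treg comparisons of Brg1 instead set subsets from mosaic females, or from TAM-treated rKO1 mice, side by side. The part of animal and treatment in the library-to-library range was not tested. Neighbours among the 4 low libraries differed by at most 1.23-fold, within that range. The high libraries were 1 Brg1-sufficient and 1 Brg1-deleted condition, so that the level of Nr4a1 did not sort by Brg1.

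Between conditions, Nr4a1 was 3.14-fold lower in the Brg1-reexpressed than in the Brg1-deleted library of rKO1 mice after TAM (95% interval 2.91 to 3.40), or −1.65 in log2 against a library-to-library range of 1.04. In the mosaic females it was 1.15-fold lower in the library with Brg1 (1.07 to 1.24). Differences of like size lay within the pairs meant to be alike, since WT was 3.11-fold above the mosaic Brg1-sufficient library and the TAM-treated Brg1-deleted library 3.87-fold above the untreated one. Set against the untreated rKO1 library in place of the TAM-treated Brg1-deleted one, Nr4a1 of the Brg1-reexpressed library was higher, by 0.30 in log2. The direction of the rKO1 difference therefore rests on which Brg1-deleted library is used.

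Nr4a2 (ENSMUSG00000026826, chromosome 2), a related receptor, was scarce in every library and had the widest spread of the 10 genes. Its level was 4.05 FPKM in Brg1-deleted rKO1 cells after TAM, 2.21 in WT and 1.95 in Brg1-reexpressed cells, against 0.675 in mosaic Brg1-sufficient, 0.598 in untreated rKO1 and 0.259 in mosaic Brg1-deleted cells. The lowest of these values rests on 25 reads and the highest on 274. From highest to lowest, the span was 14.5-fold (95% interval 9.63 to 22.8). The WT and Brg1-reexpressed libraries could not be ordered beyond counting error, nor could the mosaic Brg1-sufficient and untreated rKO1 libraries. In rKO1 mice after TAM, Nr4a2 was 2.0-fold lower in the Brg1-reexpressed library (1.62 to 2.5), within the library-to-library range of 1.29 in log2. With the untreated rKO1 library in place of the TAM-treated one, it was higher in the Brg1-reexpressed library by 1.73 in log2. In the mosaic females, both libraries were below 5 CPM and the log2 difference of 1.38 lay within a range of 3.47 for genes this scarce.

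Nr4a3 (ENSMUSG00000028341, chromosome 4), the third receptor of the family, had 6.47 FPKM in Brg1-deleted rKO1 cells after TAM and 4.73 FPKM in untreated rKO1 cells. It had 3.29 FPKM in mosaic Brg1-deleted, 3.28 in WT, 2.82 in mosaic Brg1-sufficient and 2.14 FPKM in Brg1-reexpressed cells. Unlike Nr4a1 and Nr4a2, it had both Brg1-deleted rKO1 libraries at the top, and it was not raised in WT over mosaic Brg1-sufficient cells, where the log2 difference was 0.12 (95% interval −0.11 to 0.34). In rKO1 mice after TAM, Nr4a3 was 2.92-fold lower in the Brg1-reexpressed library (2.49 to 3.44), or −1.55 in log2 against a range of 1.02. Against the untreated rKO1 library the difference was −1.12, in the same direction. The mosaic pair differed by −0.22 (−0.42 to −0.02), within its range of 1.04.

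**Figure D1:**
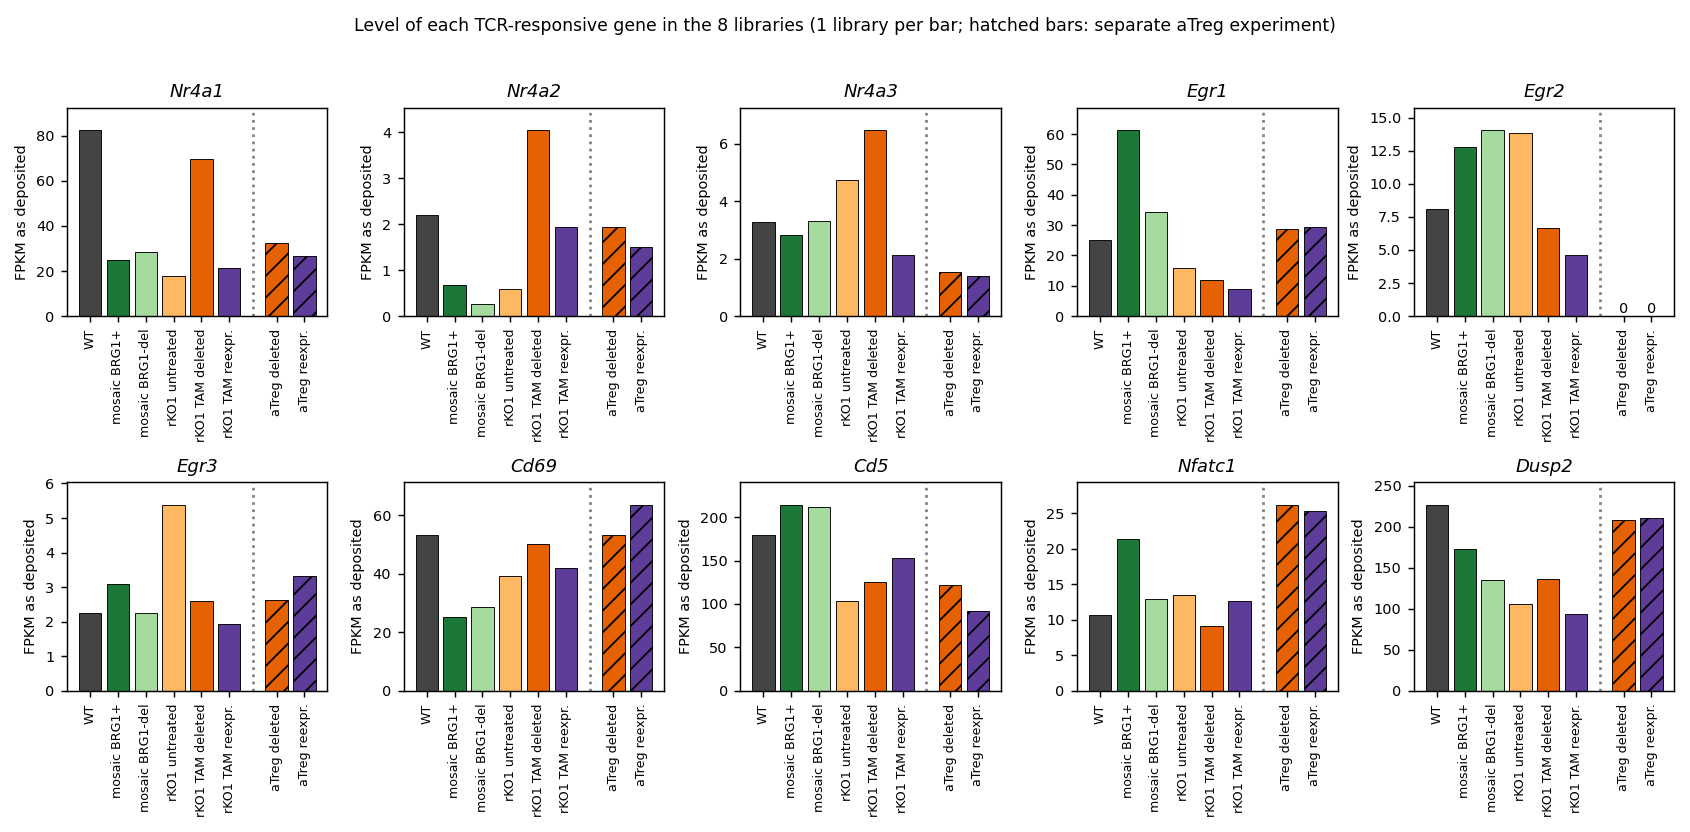
FPKM (linear axis from 0) of each of the 10 genes in the 8 libraries, 1 bar per library without an error bar since each condition has 1 library, with the separate aTreg experiment hatched to the right of the dotted line. Nr4a1 stands at 82.4 FPKM in WT and 69.5 in Brg1-deleted rKO1 cells after TAM, Egr1 stands at 61.3 in mosaic Brg1-sufficient cells, and Egr2 is listed at 0 in both aTreg libraries.

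Egr1 (ENSMUSG00000038418, chromosome 18), a zinc finger factor induced through the RAS-ERK arm, followed another order. Its level was 61.3 FPKM in mosaic Brg1-sufficient, 34.2 in mosaic Brg1-deleted and 25.0 in WT cells, and 15.8 in untreated, 11.8 in TAM-treated Brg1-deleted and 8.84 FPKM in Brg1-reexpressed rKO1 cells. Thus all 3 rKO1 libraries lay below all 3 libraries of the other mice. Each step between neighbours in this order, from 1.28-fold to 1.80-fold, exceeded counting error but lay within the library-to-library range. The span from highest to lowest, 7.23-fold (95% interval 6.66 to 7.86), lay beyond it. The Brg1-sufficient library was 1.80-fold above the Brg1-deleted library in the mosaic females (1.72 to 1.88), or 0.85 in log2 against a range of 1.05. This mosaic difference was beyond the range of the rKO1 pair alone, 0.69. In rKO1 mice the Brg1-reexpressed library was 1.28-fold below the Brg1-deleted one (1.16 to 1.42), or −0.36 against 1.10. Untreated rKO1 cells had 2.30-fold less Egr1 than mosaic Brg1-deleted cells (2.15 to 2.45), although Brg1 was deleted in both, and this difference was beyond the range. WT and mosaic Brg1-sufficient cells, both with Brg1, themselves differed by −1.39 in log2.

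Egr2 (ENSMUSG00000037868, chromosome 10, 67535475 to 67542188) encodes a factor that limits T cell activation and is induced through NFAT. It had 14.1 FPKM in mosaic Brg1-deleted, 13.9 in untreated rKO1 and 12.8 in mosaic Brg1-sufficient cells. The level was 8.06 FPKM in WT, 6.64 in Brg1-deleted and 4.6 FPKM in Brg1-reexpressed rKO1 cells after TAM. The 3 highest libraries could not be ordered beyond counting error, with 1.07-fold and 1.03-fold between neighbours. Within the BRG1 comparisons the differences were small, −0.14 in log2 in the mosaic females (95% interval −0.26 to −0.01) and −0.48 in rKO1 mice after TAM (−0.71 to −0.24). The largest fold of Egr2 was between the mosaic Brg1-deleted and the Brg1-reexpressed libraries, 3.17-fold (2.76 to 3.66).

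Egr3 (ENSMUSG00000033730, chromosome 14) is a close relative of Egr2 and acts beside it. Its highest level was 5.38 FPKM in untreated rKO1 cells. The other libraries had 3.09 FPKM (mosaic Brg1-sufficient), 2.59 (Brg1-deleted rKO1 after TAM), 2.26 (mosaic Brg1-deleted), 2.24 (WT) and 1.93 FPKM (Brg1-reexpressed). The 4 lowest of these could not be ordered beyond counting error between neighbours. In the mosaic females Egr3 was 1.37-fold higher with Brg1 (95% interval 1.15 to 1.63) and in rKO1 mice after TAM 1.3-fold lower (1.03 to 1.63). Neither difference left the library-to-library range. Between untreated and TAM-treated Brg1-deleted rKO1 cells, Egr2 and Egr3 were lower after TAM by 2.13-fold and 2.12-fold, while Nr4a1 and Nr4a2 were higher by 3.87-fold and 6.63-fold. Egr1 (−0.45 in log2) and Nr4a3 (0.42) were not called there. The differences of Egr2 (−1.090) and Egr3 (−1.083) did not leave the library-to-library ranges of 1.091 and 1.128, which came from WT and mosaic Brg1-sufficient cells. They were beyond the ranges of this rKO1 pair itself, 0.787 and 0.904.

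Cd69 (ENSMUSG00000030156, chromosome 6), an early activation antigen that keeps T cells in tissue, varied least of the 10 genes. Its level ran from 53.3 FPKM in WT, 50.1 in Brg1-deleted and 42.1 in Brg1-reexpressed rKO1 cells after TAM, through 39.3 in untreated rKO1, to 28.6 in mosaic Brg1-deleted and 25.1 FPKM in mosaic Brg1-sufficient cells. The 2 mosaic libraries were the lowest. The whole span was 1.98-fold (95% interval 1.90 to 2.07), and it separated WT from mosaic Brg1-sufficient cells, both with Brg1. In both comparisons of Brg1, Cd69 was slightly lower with Brg1, by 1.14-fold in the mosaic females (1.09 to 1.19) and by 1.15-fold in rKO1 mice after TAM (1.10 to 1.20), well within the library-to-library ranges.

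Cd5 (ENSMUSG00000024669, chromosome 19) encodes an inhibitor of TCR signalling whose surface level is set by the affinity of the TCR for self-ligand. It was among the most abundant of the 10 genes, with 214 FPKM in mosaic Brg1-sufficient, 212 in mosaic Brg1-deleted and 179 in WT cells, and 153 in Brg1-reexpressed, 126 in TAM-treated Brg1-deleted and 103 FPKM in untreated rKO1 cells. Like Egr1, it was lower in each rKO1 library than in each of the others. The mosaic pair could not be told apart, with a log2 difference of 0.02 (95% interval −0.01 to 0.05). In rKO1 mice after TAM, the Brg1-reexpressed library was 1.26-fold above the Brg1-deleted one (1.22 to 1.3), within a range of 0.95 in log2, and scaling by total reads alone took this difference to −0.02. Untreated rKO1 cells were 2.16-fold below mosaic Brg1-deleted cells (2.11 to 2.22) and 2.20-fold below mosaic Brg1-sufficient cells (2.14 to 2.26), both beyond the range.

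Nfatc1 (ENSMUSG00000033016, chromosome 18), an NFAT factor that calcium signals activate and that induces its own short isoform, was highest in mosaic Brg1-sufficient cells at 21.4 FPKM. The other 5 libraries lay between 9.10 FPKM (Brg1-deleted rKO1 after TAM) and 13.5 FPKM (untreated rKO1), with 10.7 in WT, 12.6 in Brg1-reexpressed and 12.9 FPKM in mosaic Brg1-deleted cells. Of the 10 genes it alone had a counting interval above 0 in both comparisons of Brg1, being higher with Brg1 by 1.66-fold in the mosaic females (95% interval 1.57 to 1.75) and by 1.44-fold in rKO1 mice after TAM (1.33 to 1.56). Both were under 2-fold and within ranges of 1.10 and 1.20 in log2. The mosaic difference of 0.73 was beyond the range of the rKO1 pair alone, 0.61. With the untreated library in place of the TAM-treated one the rKO1 difference was −0.08. In WT cells, which also have Brg1, Nfatc1 was 2.15-fold below mosaic Brg1-sufficient cells (2.01 to 2.29).

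Dusp2 (ENSMUSG00000027368, chromosome 2, 127336159 to 127338376), a nuclear phosphatase of ERK that TCR signals induce, was at 227 FPKM in WT, 173 in mosaic Brg1-sufficient, 136 in Brg1-deleted rKO1 after TAM, 135 in mosaic Brg1-deleted, 106 in untreated rKO1 and 94.0 FPKM in Brg1-reexpressed cells. Its FPKM was above that of Cd5 in WT and in both Brg1-deleted rKO1 libraries and below it in the other 3. It was 1.28-fold higher with Brg1 in the mosaic females (1.24 to 1.33) and 1.39-fold lower with Brg1 in rKO1 mice after TAM (1.33 to 1.46), both within the ranges of 0.98 and 1.05 in log2. Untreated rKO1 cells were 2.11-fold below WT (2.03 to 2.20), beyond the range.

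A gene was counted as called when it had at least 5 CPM in either library and differed at least 2-fold. In the mosaic females, 0 of 9 genes tested were called, where 6.12% of all 10066 genes tested were. With the WT library in place of the mosaic Brg1-sufficient one, 2 of 10 were called higher (Nr4a1 and Nr4a2). Of all 10202 genes tested in that exchange, 718 were called higher and 682 lower. In rKO1 mice after TAM, 3 of 10 were called lower with Brg1 (Nr4a1, Nr4a2 and Nr4a3) and 0 higher, where 5.62% of 10316 genes were called lower and 12.8% were called in either direction. The median log2 fold change of the 10 genes was −0.42 there and 0.02 in the mosaic females, beside 0.06 and 0.03 over all genes tested. Nr4a2 stood at the threshold and was not called with scaling by the median of ratios or with a prior of 1 read, which left 2 of 10. With the untreated rKO1 library in place of the TAM-treated Brg1-deleted one, 1 of 10 was higher (Nr4a2, 1.73 in log2). In the same exchange 3 were lower (Nr4a3 −1.12, Egr2 −1.57 and Egr3 −1.46), while Nr4a1 was not called (0.30). Of all 10492 genes tested there, 1063 were called higher and 996 lower. Scaling by total reads alone moved the split of all called genes in rKO1 mice from 736 higher and 580 lower to 373 higher and 1258 lower, with the median of all genes going from 0.06 to −0.30, and in the mosaic females from 406 and 210 to 300 and 307, but left both counts of these 10 genes as they were.

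**Figure D2:**
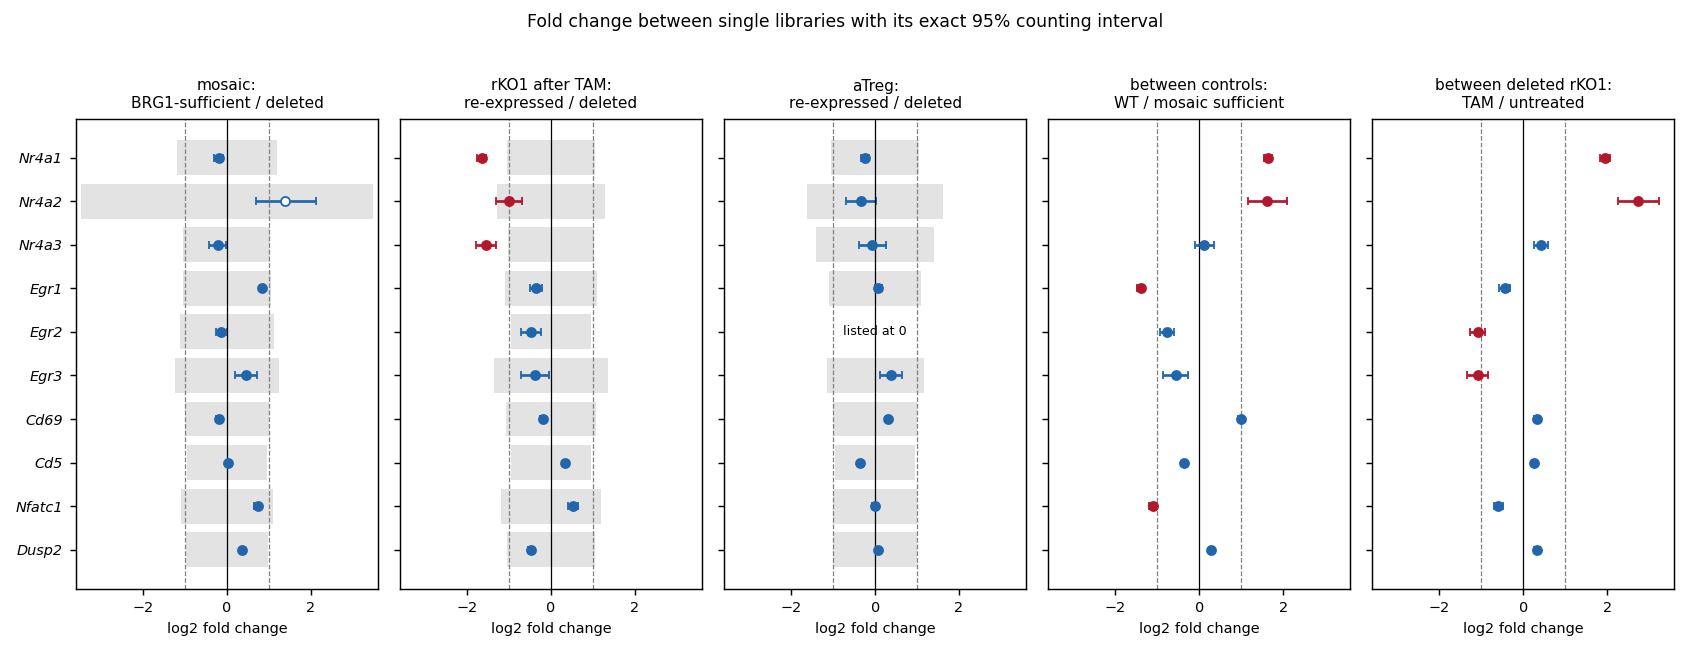
Log2 fold change of the 10 genes between single libraries in 5 comparisons, with points as estimates and bars as exact 95% counting intervals. Red marks at least 2-fold, an open point a gene below 5 CPM in both libraries, and dashed lines 2-fold. Grey boxes give the library-to-library range, the wider of the 2 taken from the pairs in the last 2 panels, where it is not drawn. Nr4a1 (−1.65) and Nr4a3 (−1.55) leave the grey box in rKO1 mice after TAM, while Nr4a1 differs by 1.64 and 1.95 in the 2 pairs of libraries meant to be alike.

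Comparisons between mice gave 2 to 4 calls each. In untreated rKO1 cells 3 genes were lower than in WT (Nr4a1, Nr4a2 and Dusp2) and 1 was higher (Egr3), where 15.7% of all genes were called. Against mosaic Brg1-deleted cells, Egr1 and Cd5 were lower and Egr3 higher, 3 of 9 tested beside 15.1% of all genes. Egr1 and Cd5 were the 2 of 9 called against mosaic Brg1-sufficient cells, both lower, beside 9.11% of all genes called lower and 17.3% in either direction. Brg1-reexpressed rKO1 cells had 3 genes below WT (Nr4a1, Egr1 and Dusp2, beside 7.39% of all genes called lower and 17.1% in either direction). Against mosaic Brg1-sufficient cells they had Egr1 7.23-fold and Egr2 2.89-fold lower and Nr4a2 2.77-fold higher, beside 21.8%. These comparisons share libraries and are not independent of each other. Markers of other cells moved with them. In untreated rKO1 cells 6 of 7 myeloid genes were called higher and 0 lower than in mosaic Brg1-deleted cells (median log2 3.09, summed level 281 against 159 CPM). The counts were the same against mosaic Brg1-sufficient cells (median 1.99, 281 against 173 CPM). Of all genes, 8.16% and 8.19% were called higher. Lyz2, not called, was lower at 67.8 CPM against 124 and 113 CPM. Against WT, 1 of 7 myeloid genes was higher and 1 lower (281 against 523 CPM). Helper T cell genes were higher than in each mosaic library for 2 of 4 tested, with 1 lower against mosaic Brg1-sufficient cells. Of the TCR complex and its kinases, 3 of 17 were lower than in mosaic Brg1-deleted cells and 4 of 17 lower than in mosaic Brg1-sufficient cells, with 0 higher. Against WT, 11 of 17 handling genes were lower in untreated rKO1 and 9 of 17 in Brg1-reexpressed cells, with 0 higher. The part of any of these in the values of the 10 genes was not tested.

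The pairs of libraries meant to be alike gave 4 calls each. WT and mosaic Brg1-sufficient cells differed in 4 of 10 genes, with Nr4a1 and Nr4a2 higher and Egr1 and Nfatc1 lower in WT, beside 9.33% of all genes. TAM-treated and untreated Brg1-deleted rKO1 cells differed in 4 of 10 as well, with Nr4a1 and Nr4a2 higher and Egr2 and Egr3 lower after TAM, beside 4.42% of all genes.

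Over the 6 total Treg libraries, the 10 genes did not share 1 profile. WT and TAM-treated Brg1-deleted rKO1 cells held the 2 highest values of Nr4a1, Nr4a2 and Cd69. Mosaic Brg1-sufficient cells held the highest value of Egr1, Cd5 and Nfatc1, and Brg1-reexpressed cells held the lowest value of Nr4a3, Egr1, Egr2, Egr3 and Dusp2. Summed over the family, Nr4a genes came to 87.9 FPKM in WT and 80.1 FPKM in TAM-treated Brg1-deleted cells. The other 4 libraries had 23.0 to 32.0 FPKM. Egr genes came to 77.2 and 50.5 FPKM in the mosaic pair and 35.3 in WT. In untreated, TAM-treated Brg1-deleted and Brg1-reexpressed rKO1 cells they came to 35.0, 21.0 and 15.4 FPKM. Nr4a1 alone gave 82.4 FPKM of the sum in WT and 69.5 in TAM-treated Brg1-deleted cells. Egr1 alone gave 61.3 in mosaic Brg1-sufficient cells. Pearson r over the 6 libraries ran from 0.18 (Nr4a2 and Nr4a3) to 0.62 (Nr4a1 and Nr4a2). Among Egr genes it ran from 0.17 (Egr1 and Egr3) to 0.75 (Egr1 and Egr2). The sums therefore do not stand for a profile shared within a family.

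The 2 libraries at the top for Nr4a1 were also the 2 highest for 10 of the 20 genes on a list of genes that respond to handling of cells. The other 10, among them Hspa8 (999 CPM in WT and 932 in TAM-treated Brg1-deleted cells against 1296 in mosaic Brg1-sufficient cells) and Hsp90aa1, did not follow this order. Fos was at 348 CPM in WT and 152 CPM in TAM-treated Brg1-deleted cells, against 17.4 to 78.7 CPM in the other 4 libraries. Junb was at 3493 and 1753 CPM against 217 to 923, and Dusp1 at 667 and 409 CPM against 38.6 to 225. Of the same list, 9 of 17 tested were higher and 0 lower in WT than in mosaic Brg1-sufficient cells (median log2 1.07, beside −0.06 over all genes), and 6 of 17 were higher and 0 lower in TAM-treated than in untreated Brg1-deleted cells (median 0.71, beside 0.00). The summed level of the list was 11647 CPM in WT and 7688 CPM in TAM-treated Brg1-deleted cells, and 4092 to 5881 CPM in the other 4. In the comparison of Brg1 in rKO1 mice after TAM, 3 of 17 were lower and 0 higher with Brg1 (6 lower with scaling by total reads or with the length trend removed, and 0 with the untreated rKO1 library as the Brg1-deleted one), and in the mosaic females 0 of 15 were called. The part of these genes in the Nr4a1, Nr4a2 and Cd69 values was not tested. Whether handling or TCR signals set the levels of the listed genes themselves was not tested either.

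**Figure D3:**
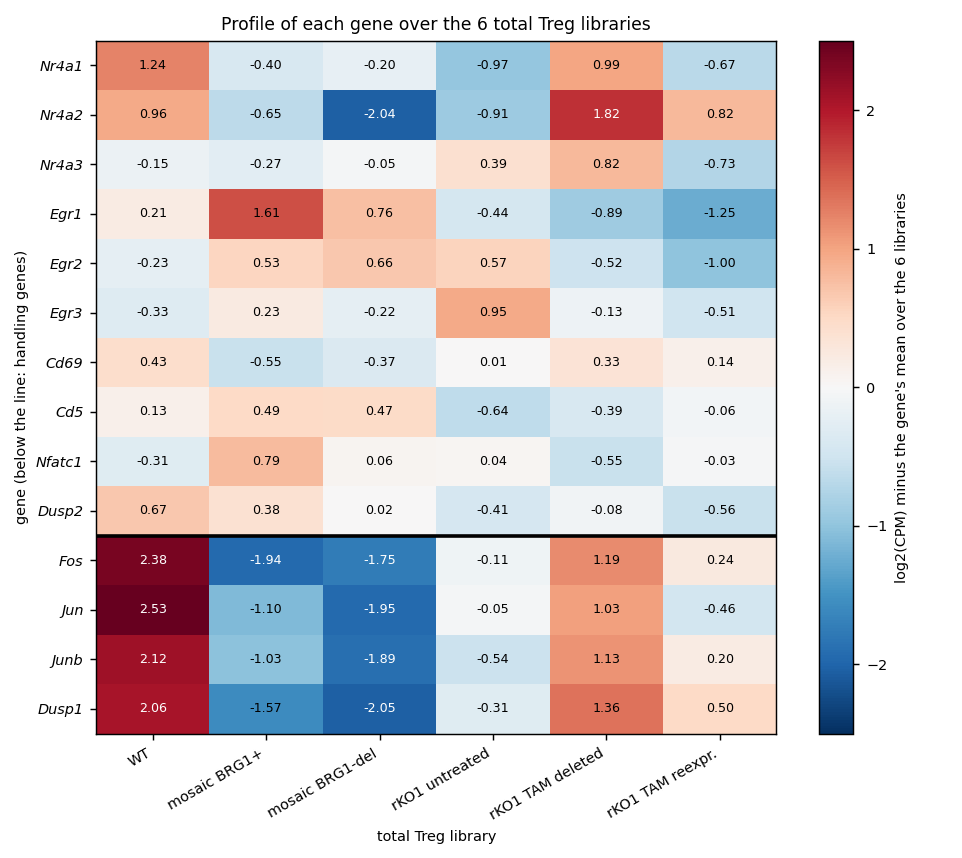
Heat map of log2 CPM minus the mean of the gene over the 6 total Treg libraries (rows are genes, columns are libraries, colour and number give the same value), with the 10 genes above the line and 4 handling genes (Fos, Jun, Junb and Dusp1) below it. Nr4a1 is at 1.24 in WT and 0.99 in Brg1-deleted rKO1 cells after TAM, where Fos is at 2.38 and 1.19, while Egr1 is at 1.61 in mosaic Brg1-sufficient cells, where Fos is at −1.94.

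For each gene the most similar profiles over the 6 libraries were sought among 3112 genes with at least 20 CPM in 1 library and a range of at least 1 in log2, by Pearson r of log2 CPM. The 6 points share their libraries with every comparison above and so many candidates give high r, so that the values are a description. Nearest to Nr4a1 were Tob1 (r = 0.961), Pim3 (0.918) and Dusp10 (0.916). Nr4a2 was nearest to Ing2, Tnfaip3 and Siah2 (each r = 0.95), and Nr4a3 to Plagl1 (0.954), Fnip1 (0.952) and Ms4a6c (0.932). Egr1 was nearest to Bcl11b (0.989), Tle3 (0.989) and Irf2bp1 (0.985), Egr2 to Rnpepl1 (0.990), Slc14a1 (0.984) and Proser1 (0.982), and Egr3 to Hyi (0.958), Slamf7 (0.944) and Usf2 (0.943). Cd69 was nearest to Hbb-bt (0.980), Fos (0.975) and Snap23 (0.973), of which 1 is a globin and 1 a handling gene. Cd5 was nearest to Cnp (0.997), Hk1 (0.993) and H2-K1 (0.990), Nfatc1 to Bcl3 (0.993), Map3k4 (0.978) and Tln1 (0.974), and Dusp2 to Cbr1 (0.985), Ldlrad4 (0.984) and Dapl1 (0.983). None of the 10 was among the 3 nearest of another, although Nr4a2 and Cd69 did not meet the limits set for candidates.

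In aTreg cells the 10 genes were close to level between the 2 libraries, and 0 of 9 tested were called, beside 6.44% of all 10035 genes. Levels are given first for the library labelled Brg1-deleted and then for the library labelled Brg1-reexpressed. Nr4a1 had 32.2 and 26.5 FPKM, Nr4a2 1.95 and 1.5 FPKM and Nr4a3 1.52 and 1.41 FPKM. In log2 these differences were −0.24 (95% interval −0.33 to −0.15), −0.33 (−0.70 to 0.03) and −0.07 (−0.39 to 0.26), so that the Nr4a family did not show the 2-fold or larger differences of the total Treg pair. Egr1 had 28.6 and 29.3 FPKM and Egr3 2.64 and 3.31 FPKM, with log2 differences of 0.07 (−0.01 to 0.16) and 0.37 (0.11 to 0.64). Cd69 had 53.3 and 63.5 FPKM, 1.23-fold higher in the library labelled Brg1-reexpressed (1.19 to 1.27). Cd5 went the other way, with 122 and 91.4 FPKM and 1.29-fold less (1.26 to 1.33). Nfatc1, at 26.2 and 25.3 FPKM, and Dusp2, at 208 and 211 FPKM, differed by −0.01 (−0.07 to 0.06) and 0.06 (0.02 to 0.11) in log2. All of these lay within library-to-library ranges of 0.95 to 1.62, which were borrowed from the total Treg experiment.

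Egr2 is listed at 0 in both aTreg libraries, so no difference is given for it. The total Treg libraries had 247 to 1136 reads of Egr2. Among the 6893 genes with at least 200 reads in each of the 6 total Treg libraries, 12 are listed at 0 in both aTreg libraries, and Egr2 and its neighbour Ado are 2 of them. The list also holds Ptprcap, a gene of the CD45-associated protein with at least 2824 reads in each total Treg library. Whether Egr2 was at 0 in these cells or was left out of the counting was not tested. The exon lengths behind the FPKM of Nr4a1, Cd5 and Nfatc1 differ between the experiments, and the levels of total Treg and aTreg libraries are therefore not compared.

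Genes of the rest of the pathway were described from lists of known members. Of the TCR complex and its proximal kinases and adaptors, such as Cd3e, Lck, Zap70 and Lat, 0 of 17 tested were called in the mosaic females and 0 of 17 in rKO1 mice after TAM (2 lower there with scaling by total reads alone). Of the calcium, NFAT and RAS-ERK arm, 0 of 18 and 0 of 17 were called. In aTreg cells 1 of 17 of the first list was lower in the library labelled Brg1-reexpressed, Cd3e, the CD3 epsilon chain, with 385 against 942 CPM (log2 −1.29, 95% interval −1.33 to −1.25), and 0 of 17 of the second were called. The median log2 fold changes of the first list were 0.05, 0.11 and −0.22, and those of the second 0.10, 0.10 and −0.17, in the mosaic, rKO1 and aTreg comparisons, beside 0.03, 0.06 and −0.06 over all genes.

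Among negative regulators of TCR signalling, 1 of 18 was higher with Brg1 in the mosaic females, where 4.03% of all genes were higher, and 2 of 18 were higher and 1 lower in rKO1 mice after TAM, where 7.13% of all genes were higher and 5.62% lower. These counts are close to those shares. Ubash3b, a phosphatase that restrains ZAP70, was higher in both, at 65.1 against 31.7 CPM (log2 1.04, 95% interval 0.91 to 1.17) and 25.9 against 12.2 CPM (1.09, 0.85 to 1.33). Sla2, an adaptor that lowers TCR amounts, was higher with Brg1 in rKO1 mice (1.13, 1.04 to 1.21). With scaling by total reads alone, 0 of 18 were higher in either comparison. Spry1, an inhibitor of the RAS-ERK arm, was lower with Brg1 in rKO1 mice, with 4.6 against 13.4 CPM (−1.54, −1.93 to −1.17), and was the 1 gene of 18 called in aTreg cells, also lower in the library labelled Brg1-reexpressed (−1.29, −1.47 to −1.11).

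Of the other TCR-induced genes, 2 of 21 were higher with Brg1 in the mosaic females and 0 lower, the costimulatory receptor Icos (135 against 24.6 CPM, log2 2.46, 95% interval 2.33 to 2.59) and the inhibitory receptor Lag3 (1.95, 1.56 to 2.35). In rKO1 mice after TAM 2 of 21 were higher, Icos (404 against 110.4 CPM, 1.87, 1.80 to 1.94) and Ctla4 (1.52, 1.46 to 1.58), while 4 were lower, Ier3, Cd83, Tnfaip3 and Myc. Ier3, a short-lived early response gene, was at −1.56 (−1.86 to −1.26), Cd83 at −1.41 and the NF-κB inhibitor Tnfaip3 at −1.13. These counts stand beside the same shares of all genes as above. In aTreg cells 0 of 20 were called.

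The list of genes known to be lowered by TCR signalling or activation had a median below 0 in each comparison of Brg1. In log2 it was −0.16 in the mosaic females, −0.44 in rKO1 mice and −0.41 in aTreg cells. Over all genes the medians were 0.03, 0.06 and −0.06. With Brg1 in the mosaic females, 2 of 11 were higher and 0 lower, Il7r (log2 2.34, 95% interval 2.21 to 2.48) and Ly6c1 (1.94, 1.82 to 2.05). In rKO1 mice after TAM 4 of 11 were lower with Brg1 and 0 higher, led by Bach2 (−3.29, −3.70 to −2.90), a repressor of effector differentiation, Tcf7 (−2.78, −2.93 to −2.64), and Ly6c1 (−2.58, −3.02 to −2.18). In aTreg cells 1 of 11 was lower, Ly6c1 (−1.09, −1.28 to −0.90). Of all genes, 4.03% were higher in the mosaic females, 5.62% lower in rKO1 mice after TAM and 2.03% lower in aTreg cells.

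**Figure D4:**
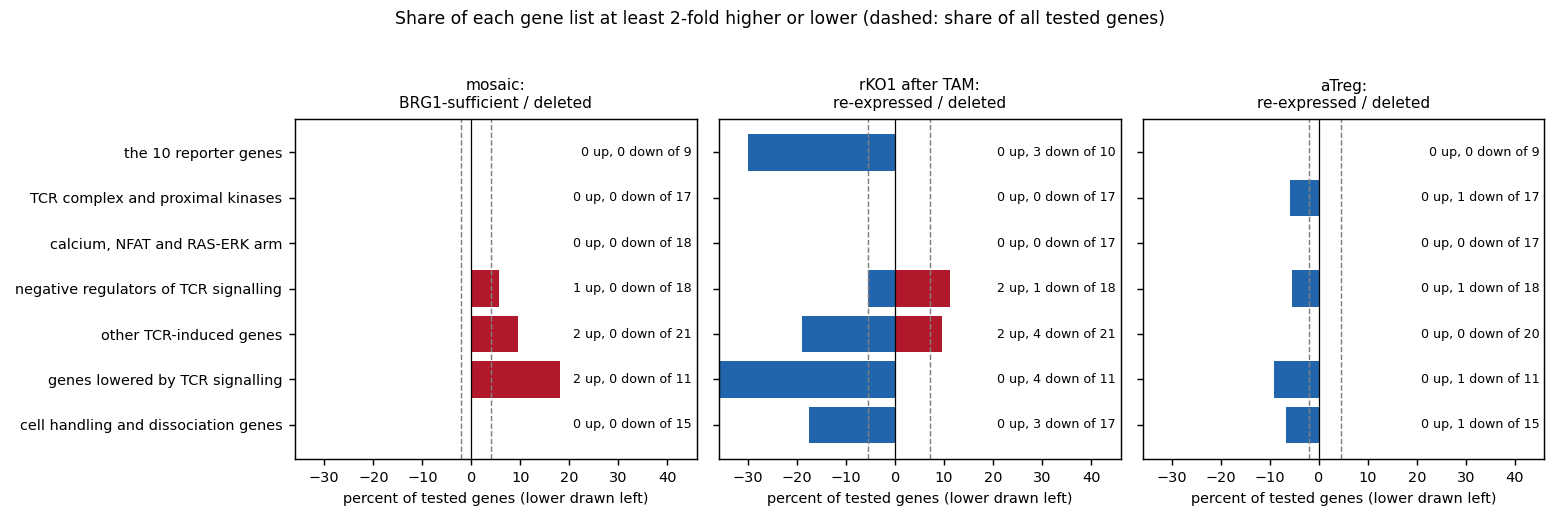
Share of the tested genes of each list that were at least 2-fold higher (red, right) or lower (blue, left, drawn as negative) in the library with Brg1, or labelled so, in the mosaic, rKO1 and aTreg comparisons, with the share of all tested genes as dashed lines and the counts printed at the right. The 10 genes have 0, 3 and 0 called, and no gene of the 2 upstream lists is called in the mosaic or rKO1 comparison.

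Markers of other cells also moved with the libraries. Of 10 genes on the helper T cell list, 8 were highest in TAM-treated Brg1-deleted rKO1 cells among the total Treg libraries, with Il4 at 45.4 CPM against 0.453 to 12.4 in the other 5 total Treg libraries, while Tnf (38.0 CPM against 33.3 to 63.7) and Cd40lg (38.6 against 16.4 to 45.2) were not. In Brg1-reexpressed cells 4 of 6 tested genes of the list were lower and 0 higher. The summed level of the list was 166 CPM in TAM-treated Brg1-deleted cells and 69.0 to 106 CPM in the others, with Il17a, Il13 and Il3 at 1.15 CPM or less in each library. Of the myeloid list, 7 of 9 were lower and 0 higher in Brg1-reexpressed than in Brg1-deleted cells (summed 102 and 238 CPM), and 5 of 7 were higher and 0 lower in WT than in mosaic Brg1-sufficient cells (523 and 173 CPM). In aTreg cells all 6 erythroid genes were higher in the library labelled Brg1-reexpressed, with Hba-a1 at 8486 against 605 CPM, and removing the list before scaling left the count of called genes among the 10 at 0. The part of these cells in the values of the 10 genes was not tested.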

How the data were processed

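RNA of 0.1 M sorted Treg cells per sample was copied with the SMART-Seq v4 kit and sequenced as paired ends on an Illumina HiSeq. The authors deposited 1 FPKM value per Ensembl gene and library. The submitters' processing notes name HISAT2 2.0, StringTie 1.3.3b, featureCounts 1.5.0-p3 and the build mm10. The design had foreseen reads recovered from these values, and this was done: a value times the summed exon bases in GENCODE M21 (GRCm38) and a total found for each library gives its reads. In the total Treg libraries 93.2% of 26020 genes gave whole reads (within 0.001), 1587 more did so with another whole-number exon length and 181 were rounded. In the aTreg libraries 100% of 21242 genes did. Of 53465 identifiers, 105 were not in the annotation and were left out.

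Libraries were scaled within each experiment with TMM (trimmed means of M-values), coded in Python 3.11.15 (pandas 2.3.3, SciPy 1.17.1, NumPy 2.4.6), and plots used matplotlib 3.10.9. A prior of 0.125 reads was added before taking log2 fold changes. Intervals are exact (Clopper-Pearson) 95% intervals of the reads of 2 libraries and cover counting error only. The steps were tested on simulated data with known folds. Conditions were taken from the sample titles, and 10 pairs of libraries were compared, with no test. The genes and lists were chosen with earlier results of these data known, and 1 gene of the list of genes lowered by TCR signalling is not reported here. Named were all 10 genes, Smarca4, the 3 called genes with the largest change of each other list in the 3 comparisons of Brg1, the 3 genes most like each of the 10, and markers of other cells, and, chosen after their values were seen, Cd83, Tnfaip3, Myc, Ptprcap, Ado and the helper and handling genes given.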

Additional observations from a re-analysis of the deposited data

Results flagged for a closer look

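Some of the 10 genes differed in opposite directions beside Brg1 in 2 comparisons that share no library, with both counting intervals excluding 0. None of these differences between comparisons was tested, since each condition has 1 library. Between the mosaic females and rKO1 mice after TAM, the log2 fold change of Nr4a2 was 1.38 and −1.0, a difference of 2.38, but in the mosaic females Nr4a2 was below 5 CPM in both libraries. Egr1 had 0.85 and −0.36 (a difference of 1.21), Dusp2 0.36 and −0.48 (0.84) and Egr3 0.45 and −0.37 (0.83). With WT in place of the mosaic Brg1-sufficient library, Egr1 (−0.55) and Egr3 (−0.11) had the same sign as in rKO1 mice. With untreated rKO1 cells in place of the TAM-treated Brg1-deleted ones, Nr4a2 (1.73) had the same sign as in the mosaic females.

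Between rKO1 mice after TAM and aTreg cells, Egr3 had −0.37 and 0.37 (a difference of −0.74), Cd5 0.33 and −0.37 (0.70), Dusp2 −0.48 and 0.06 (−0.54) and Cd69 −0.20 and 0.30 (−0.50). Cd69 also had −0.19 in the mosaic females against 0.30 in aTreg cells, a difference of −0.48. Each of these fold changes alone lay within the library-to-library range. With untreated rKO1 cells as the Brg1-deleted library, Cd69 (0.12) had the same sign in rKO1 mice as in aTreg cells. With WT as the Brg1-sufficient library, Cd69 (0.80) had the same sign in the mosaic comparison as in aTreg cells. The directions in aTreg cells rest on labels that the Smarca4 values go against.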

How the results depend on the processing

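No paired analysis was possible because each condition has 1 library, and for the same reason no replicate could be left out. Values were recomputed with scaling by total reads or by the median of ratios, the FPKM as deposited with a pseudocount of 0.1, a prior of 1 read, no CPM filter, a 1.5-fold threshold and removal of a trend with exon length. Of 82 counts of called genes among the 10, 75 stayed within 1.5 times of the reported count. Without the CPM filter 1 gene (Nr4a2) was called in the mosaic females in place of 0. At 1.5-fold 2 were called there and 7 in place of 4 for untreated rKO1 against WT. At that threshold 6 were called in place of 2 for untreated rKO1 against mosaic Brg1-sufficient cells. For Brg1-reexpressed against mosaic Brg1-sufficient cells 7 were called in place of 3. Among all genes, 1.5-fold gave 1194 higher and 833 lower of 10066 in the mosaic females. For untreated rKO1 it gave 1921 and 1902 of 10475 against WT, and 1696 and 2265 of 10454 against mosaic Brg1-sufficient cells. For Brg1-reexpressed against mosaic Brg1-sufficient cells it gave 2184 and 2360 of 10335. With total reads alone 1 of the 10 genes was called in place of 3 for untreated rKO1 against mosaic Brg1-deleted cells. The count in rKO1 mice after TAM was 2 or 3 under each of these settings and that in aTreg cells was 0. After the data were seen, 2 libraries were exchanged. With WT as the Brg1-sufficient library of the mosaic comparison 2 genes were called (Nr4a1 and Nr4a2, both higher). With untreated rKO1 as the Brg1-deleted library 4 were called, and Nr4a1 (0.30) and Nr4a2 (1.73) reversed. Of 614 log2 fold changes of single genes under an alternative, 486 moved by less than the mean arm of the counting interval. Of 594 under the settings of the processing 13 changed sign, and of 20 with an exchanged library 10 did, the 2 above being those of called genes. Of 492 counts of called genes on the other lists, 71 moved by over 1.5 times. Depth limits Nr4a2, which had 25 reads in 1 library.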
